A study of Gallus gallus with 8 samples.

Results

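The W chromosome of the chicken was described through its Nrf2 CUT&Tag peaks in broiler liver. Every peak placed on W of the galGal6 build, in any of 8 deposited peak lists, was taken as a member, and peaks that overlapped or touched were merged. This gave 492 peaks in 131 regions, out of 66669 peaks and 30246 merged regions over the whole genome. The regions ran from base 6441 to base 6732271 of W and covered 82.3 kb, or 1.22% of W up to that last base.

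The study profiled liver of broilers (Gallus gallus) by CUT&Tag, which tags DNA next to an antibody-bound protein with a tethered transposase, and its title names genes regulated by Nrf2 under heat stress. The 8 lists form 2 groups of 4, named PT and HT in the titles. HT carries the label high temperature as its treatment. For PT the fields conflict, since one gives phloretin (a plant polyphenol) as the treatment and another calls the birds normal, while the field for the treatment protocol states high temperature in both groups. What PT birds received therefore cannot be stated, and age, strain detail, sex and any pooling of birds are not given in the labels used here. The liver label could not be checked, because the lists hold positions and not expression. The lists hold no read counts, so depth is unknown. No label says that the lists of a group came from separate birds, so p-values measure only the spread between these lists, which may be technical.

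In birds the female is the heterogametic sex: a male has a Z chromosome from each parent, and a female has Z and W. W is therefore present in female cells and is not part of a male genome. It is small, rich in repeats and poor in genes, and most genes left on it have a partner on Z that descends from the same ancestral gene. Nrf2 (the product of NFE2L2) is a transcription factor that is released from Keap1 under oxidative stress and binds antioxidant response elements as a dimer with small Maf proteins. It switches on genes for glutathione synthesis, quinone reduction and detoxification, many of them active in liver. Genes at the W regions are not given and no base sequence is shown, because no annotation or genome of galGal6 was used here.

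The lists were not equally distinct on W. In PT lists 1, 2 and 3 the W peaks were nearly the same. These lists held 80 W regions between them, and all of them held 77 of these (96.2%). Off W, the same lists held 10180 regions, and all held 3776 of these (37.1%). The Jaccard index, the bases covered by both lists over the bases covered by either, averaged 0.962 on W for the 3 pairs among them (0.954 to 0.967). On the 33 other chromosomes the same mean ranged from 0.369 to 0.719, with chromosome 25 at the top. This order depended on which peaks were kept. With every list held to the length of the shortest, the W mean was 0.802 and chromosome 32 stood above it at 0.836. With the highest-scoring 50% of each list it was 0.794, and 3 chromosomes stood above it. Chromosome 32, the highest in both settings, had only 8, 8 and 13 peaks in the full PT lists 1 to 3.

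PT list 4 was less like the other PT lists than these were like each other, on W as off W. It lacked 16 of the 77 regions that PT lists 1 to 3 all held, and 12 of its 74 W regions were in no other list. Its Jaccard index with each of the others was 0.654 to 0.662 on W and 0.364 to 0.444 off W. The W mean of 0.657 was above that of each of the 33 other chromosomes, of which chromosome 16 came nearest at 0.649. Among the HT lists the index on W averaged 0.564 (0.519 to 0.632, 6 pairs), and 7 of the 33 other chromosomes had a higher mean. Between the groups it averaged 0.171 (0.144 to 0.194, 16 pairs), and in all 16 pairs it was higher on W than off W, where the mean was 0.109. Set among the 33 other chromosomes by its mean between the groups, W stood only at rank 9, and chromosome 22 was highest at 0.281. Among W regions holding 1 peak of each list compared, start and end were both identical in 62.3% to 92.2% of cases within PT and in 46.9% to 67.7% within HT. Between the groups 0 W peaks had identical ends. Off W these shares were 59.3% to 82.5% within PT, 54.8% to 70.6% within HT and 0.227% on average between the groups. Lists that share peak ends cannot be taken as independent, which touches every p-value given here. Each group comparison was therefore also made with PT lists 1 to 3 counted as 1 list. The smallest p that the exact permutation test can give is then 0.0667, so none of these comparisons can pass.

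**Figure D1:**
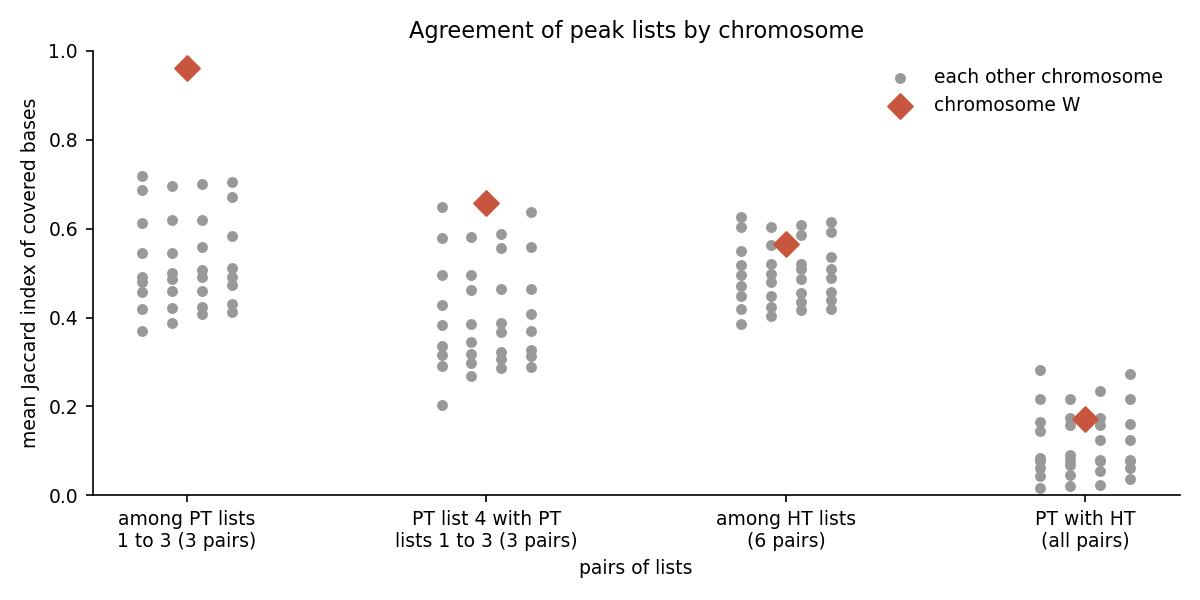
Mean Jaccard index of covered bases (y axis) for 4 kinds of list pairs (x axis), with 1 grey point for each of 33 other chromosomes and a diamond for W. Among PT lists 1 to 3 the W value of 0.962 lies above the highest other value of 0.719, while among HT lists and between the groups W lies inside the range of the others.

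Fewer W peaks were listed in HT than in PT. The PT lists held 79, 78, 78 and 75 peaks on W in the order of their numbers, and the HT lists held 40, 48, 48 and 46. The PT counts lay within 4 peaks of each other although the PT lists differed in length from 5120 to 7302 peaks. The groups did not overlap. The means were 77.5 ± 1.73 in PT and 45.5 ± 3.79 in HT (SD, n = 4 lists each), with exact two-sided permutation p = 0.0286 and Benjamini-Hochberg adjusted p = 0.0327 over 8 tests. That is the lowest p open to the test, which has 70 relabellings. HT lists were longer, so the lists were also held to their 5120 highest-scoring peaks. W then kept 67.2 ± 7.59 peaks in PT and 27 ± 2.45 in HT (SD, n = 4 lists each).

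The bases of W under peaks followed the same order. They came to 45.1, 44.0, 44.4 and 42.9 kb in PT lists 1 to 4 and to 26.2, 28.7, 28.9 and 28.0 kb in HT lists 1 to 4. W made up 1.23 ± 0.175% of the covered bases of a PT list and 0.458 ± 0.0346% of those of an HT list (SD, n = 4 lists each; exact permutation p = 0.0286, adjusted p = 0.0327). Against Z, its partner in the female, the gap was wider, as HT lists also had more Z peaks. Z held 452 ± 72.6 peaks in PT and 1125 ± 79.1 in HT (SD, n = 4 lists each). The PT lists had 16.4, 19.5, 14.4 and 19.5 W peaks for every 100 Z peaks, and the HT lists had 3.80, 4.09, 4.52 and 3.80. The HT mean was 0.232 times the PT mean, with no overlap between the groups (exact permutation p = 0.0286, adjusted p = 0.0327).

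**Figure D2:**
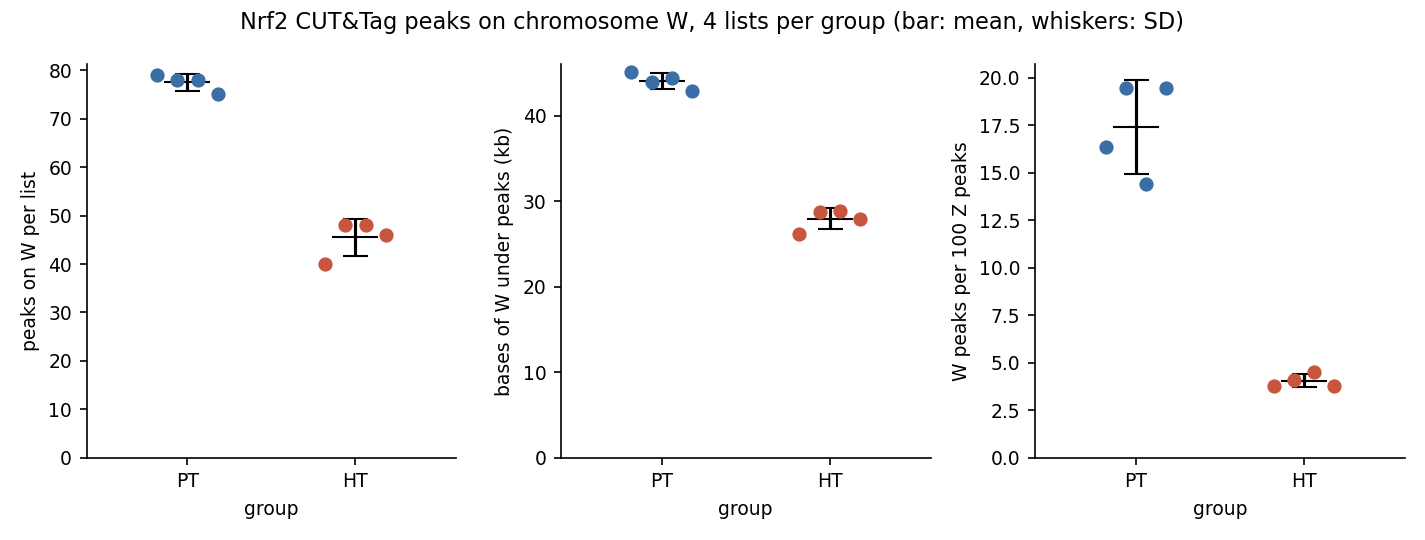
Peaks on W per list, kilobases of W under peaks, and W peaks per 100 Z peaks (y axes), for the PT and HT groups (x axis). Each point is 1 list, the bar is the mean of 4 lists and the whiskers are the SD, and in each panel all PT points lie above all HT points.

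Pieces of W that galGal6 has not placed along the chromosome, which are outside the 131 regions, differed more. On the 19 scaffolds named after W that had a peak, the PT lists held 26, 24, 26 and 19 peaks, while the HT lists held 1, 0, 0 and 0. HT was thus at or near 0 on pieces where every PT list had at least 19 peaks. The difference gave an exact permutation p of 0.0286, in a test added after the data were seen and left out of the adjustment. Of the 29 merged regions there, 17 were in every PT list and absent from the HT lists. On scaffolds not named after W this held for 170 of 1551 merged regions. By peaks per list those scaffolds ran the other way, with 568.5 ± 37.8 peaks in PT and 818 ± 13.5 in HT (SD, n = 4 lists each). The 1 scaffold named after Z that had a peak held 1 peak in every list. The sex of the birds is not in the labels, and its part in the W and Z values was not tested.

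Set beside chromosomes whose last peak lay between 5 and 8 Mb, as on W, the position of W depended on the group. In PT, W had more peaks per list than 7 of the 8 others, and chromosome 33 had the most with a mean of 169 peaks. In HT, all 8 had more peaks than W, with means of 64.5 to 330.75 per list. The HT to PT ratio was 1.95 to 3.40 on the 8 others and 0.587 on W.

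The lower HT count was spread along W. In each of the 7 consecutive 1 Mb parts the HT mean was below the PT mean. The gap was widest in the part from 1 to 2 Mb, where the PT lists held 15 to 17 peaks and the HT lists 6 to 8. In the parts from 4 to 5 Mb and from 5 to 6 Mb the PT lists held 9 to 11 and 11 to 12 peaks, against 2 to 4 and 4 to 5 in HT. The groups met or overlapped in 3 parts, with 7 to 9 peaks in PT and 4 to 7 in HT from 2 to 3 Mb, with 12 to 14 and 9 to 12 from 3 to 4 Mb, and 4 to 5 and 3 to 5 from 6 Mb on. No list had a peak in W:2298509-2721451, the longest stretch between regions at 423 kb. The median gap between neighbouring W peaks of a list was 77.3 ± 20.6 kb in HT and 44.7 ± 8.80 kb in PT (SD, n = 4 lists each; exact permutation p = 0.0286, adjusted p = 0.0327). This call was lost, at an exact permutation p of 0.0571, when PT list 1, 2, 3 or 4 or HT list 1 was left out. HT list 1 had the longest median gap of all lists, 107 kb. The difference of 32.6 kb was 113 kb with lists of equal length and 87.8 kb with the highest-scoring 50% of each list. W then kept means of 27 and 27 peaks in HT and 67.2 and 47 in PT. Fewer peaks over the same length lie farther apart, so the median gap is not a result apart from the lower HT count.

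Sorted by the lists that held them, W regions were mostly of one group, but less often so than regions of the whole genome. The 4 PT lists alone, without any HT list, shared 36 of the 131 (27.5%), where 6.83% of all regions of the genome did. The 4 HT lists alone held 9 (6.87%), against 14% of all regions of the genome. Counted whatever the other group held, regions in all 4 PT lists numbered 61 (46.6%, against 10.4% of the genome) and regions in all 4 HT lists 26 (19.8%, against 17.7%). All 8 lists held 15 (11.5%), against 2.41%. A further 14 were in lists of both groups but not in all 8, so that 29 regions (22.1%) were in both groups, against 6.81% of the genome. A single list accounted for 31 (23.7%), against 55.9%. PT lists 1 to 3 all held 96.2% of their W regions, but only 37.1% of their regions off W. Being in all 4 PT lists, or in all 8 lists, therefore asks for less on W than over the genome. Shares that count PT lists in this way, and the share in a single list, are not like for like. With the highest-scoring 50% of each list the 3 counts were 20 PT regions, 4 HT regions and 5 common regions, and without HT list 1 there were 14 HT regions. Asking that peaks cover 50% of a region left 9 common regions. Lists of equal length left 32 PT regions, 4 HT regions and 7 common regions. Shares over the genome were taken only for the full lists, so these changed counts cannot be set against them.

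**Figure D3:**
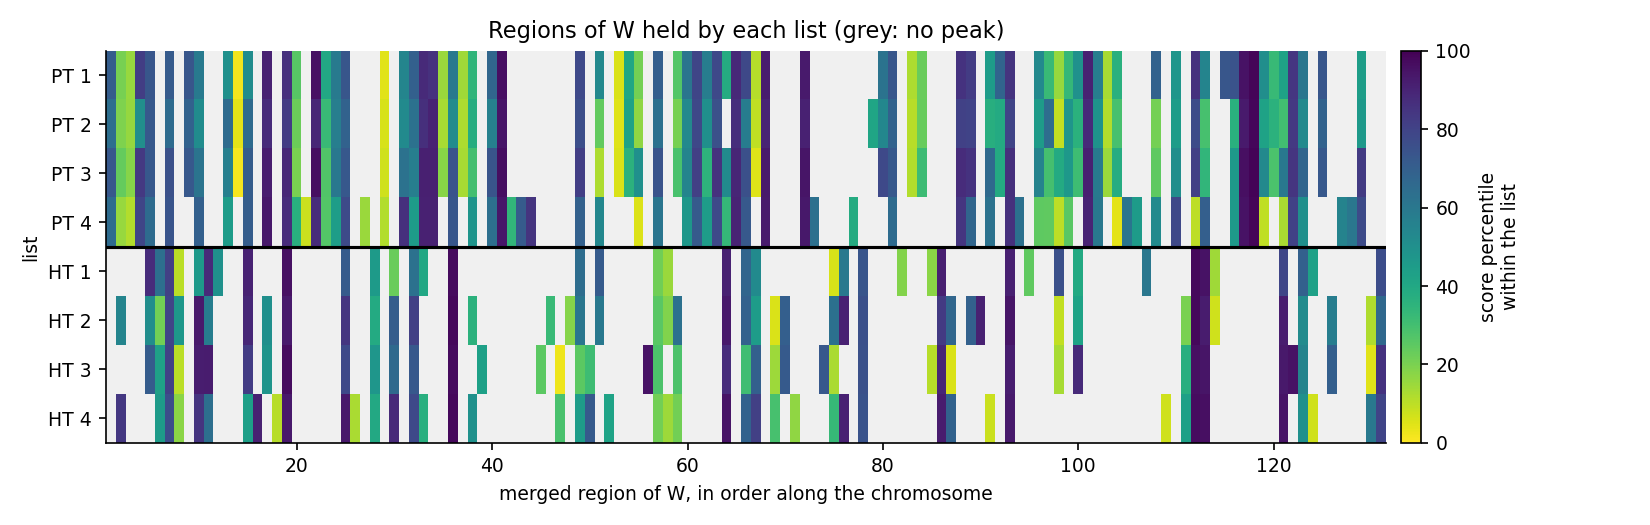
The 131 merged W regions in their order along the chromosome (x axis, evenly spaced and not to scale) in each of the 8 lists (y axis), coloured by the percentile of the peak score within the list from 0 to 100 and grey where the list has no peak. PT lists 1 to 3 show nearly the same columns, PT list 4 has 12 columns of its own, and only 15 columns are filled in all 8 lists.

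The 9 HT regions were unevenly placed, with 3, 2, 0, 3, 0, 0 and 1 in the consecutive 1 Mb parts of W. They ranked from low to high in their lists. Ranks are given as the percentile of the authors' peak score among all peaks of the same list, from 0 for the lowest to 100 for the highest, since the scale of the score is unknown. The best placed was W:3885241-3885770, 530 bp wide, at percentiles of 91.3, 83.2, 89.1 and 92.4 in HT lists 1 to 4. W:6731795-6732271, the last W region in these lists, was at 76.3, 66.4, 85.2 and 79.6. W:3669540-3669844, 305 bp wide and the narrowest of the 9, was at 73.8, 75.4, 75.2 and 74.3. Each of these had identical peak ends in the 4 HT lists.

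Several of the 9 moved more between HT lists. W:592037-592601 was at percentiles of 87.9, 57.8, 92.4 and 63.7, and W:1255749-1256628 at 23.0, 70.6, 65.6 and 88.1. W:3592665-3593152 ranged from 6.02 in HT list 1 to 63.2 in HT list 2, although its ends were identical in all 4 lists. W:1253301-1253876 moved little, between 38.9 and 47.6. The last pair, W:369379-370117 at 21.4 to 63.5 and W:373119-373857 at 10.2 to 47.2, were both 739 bp wide. They flanked W:371624-372413, a region held by all 8 lists. In HT lists 1 and 3 the flanking peaks were of equal width, 694 bp, with both ends shifted by exactly 3740 bp.

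Of the 9 HT regions, 6 lay within 5 kb of a region held by a PT list. The median distance over the 9 was 1.45 kb. These distances were not taken for regions of one group off W, so nearness is not shown to be a trait of W. W:1253301-1253876 and W:1255749-1256628 lay 492 and 714 bp from W:1254368-1255035, which was found in every PT list but in 0 HT lists. That PT region ranked low, at percentiles of 4.57 to 11.6, and its scores of 41.8 to 44.53 were near the lowest listed score of 40. Of the 36 PT regions, 14 lay within 5 kb of a region of an HT list, with a median distance of 16.5 kb. PT lists had more W regions than HT lists, so a region of an HT list had more neighbours of the other group to lie near.

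The 36 PT regions included the highest-scoring W peak of every PT list. This was in W:5737217-5737876, 660 bp wide, at percentiles of 98.8, 98.4, 98.9 and 98.8 in PT lists 1 to 4, or rank 82, 82, 84 and 81 from the top of each list. A second PT region stood beside it, W:5736280-5736701, at 92.9 to 95.9. The widest of the 36, W:1839974-1842704 at 2731 bp, lay at 94.0 to 96.2. No HT list had a peak in these places, though peaks under the minimum score of 40 are not listed.

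A pair of the highest-ranked PT regions had the same width. W:3338641-3339107 and W:3344118-3344584 were both 467 bp wide in all 4 PT lists, 5477 bp apart from start to start, at percentiles of 90.1 to 93.0 and 91.0 to 94.4. Such repeats of width also occurred between W:1328500-1329043 and W:1334077-1334728, whose peaks in PT lists 2, 3 and 4 were both 412 bp wide and 5790 bp apart. The first of that pair was also in HT lists 1 and 4, at percentiles of 40.5 and 36.8, against 86.5 to 91.4 in PT, while the second was in PT lists only, at 85.6 to 91.1. The other high-ranked PT regions were W:1130278-1130598 (87.9 to 96.3), W:4669928-4670230 (88.0 to 91.3), W:3129898-3130303 (86.8 to 89.9) and W:3887218-3887519 (80.5 to 87.3). They were 302 to 406 bp wide, narrower than the median of 475 bp over the 36. Peak ends were identical across the PT lists in 23 of the 36 regions.

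The 15 regions held by all 8 lists were wide. Their median width was 937 bp, against 565 bp for the 9 HT regions and 475 bp for the 36 PT regions, and common regions off W had a median of 1178 bp. Part of this is built in, because merging more lists widens a region and a wide region is met more often. In HT these regions included the top of the W ranking. W:1486951-1487832 was at percentiles of 97.2, 97.8, 97.1 and 98.0 in HT lists 1 to 4 and held the highest-scoring W peak of HT lists 2, 3 and 4. In PT it was at 59.7, 51.6, 74.3 and 73.2. W:5522795-5523698 held the highest-scoring W peak of HT list 1 and was at 95.9 to 97.8 in HT, and at 85.6, 77.2, 81.0 and 10.1 in PT. PT list 4 was far below the other PT lists there.

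Ranks in the common regions did not run the same way everywhere. In 7 of the 15 every HT percentile was above every PT percentile, and in 2 it was below. Over the 728 common regions of the genome these shares were 48.2% and 7.01%. The 7 of 15 on W were thus near the share of the genome, and 2 regions are too few to set against 7.01%. The percentile is a place within a list, and PT and HT lists differ in length, so these are placements and not changes in binding. W:5968068-5968885 was at 79.1 to 94.9 in HT and 12.9 to 59.8 in PT, and W:5554562-5555335 at 92.3 to 95.9 and 29.2 to 69.6. W:962257-965140, 2884 bp wide, and W:4118052-4119405 were high in both groups, at 93.0 to 96.6 and 91.1 to 94.2 in HT and 82.3 to 88.7 and 79.3 to 86.6 in PT. W:371624-372413 was at 76.5 to 80.9 in HT and 65.2 to 75.0 in PT.

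Placement was reversed in W:2775143-2775732, at 21.3 to 27.8 in HT and 61.2 to 74.4 in PT, and in W:2219418-2220466, at 25.2 to 64.2 and 68.9 to 81.5. The groups overlapped in the other 6 common regions. Of these, W:792230-795615 was the widest region on W at 3386 bp. Its percentile fell between 82.3 and 90.4 in HT lists 1 to 3 but was 43.5 in HT list 4, against 51.2 to 70.6 in PT. W:579935-580871 was at 84.9 to 93.3 in HT lists 2 to 4 but 46.2 in HT list 1, against 51.3 to 69.4 in PT. W:1211699-1212957 was at 71.1 to 93.3 in HT and 68.6 to 77.7 in PT. W:1292415-1293800 was at 62.7 to 81.0 and 45.3 to 69.5.

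**Figure D4:**
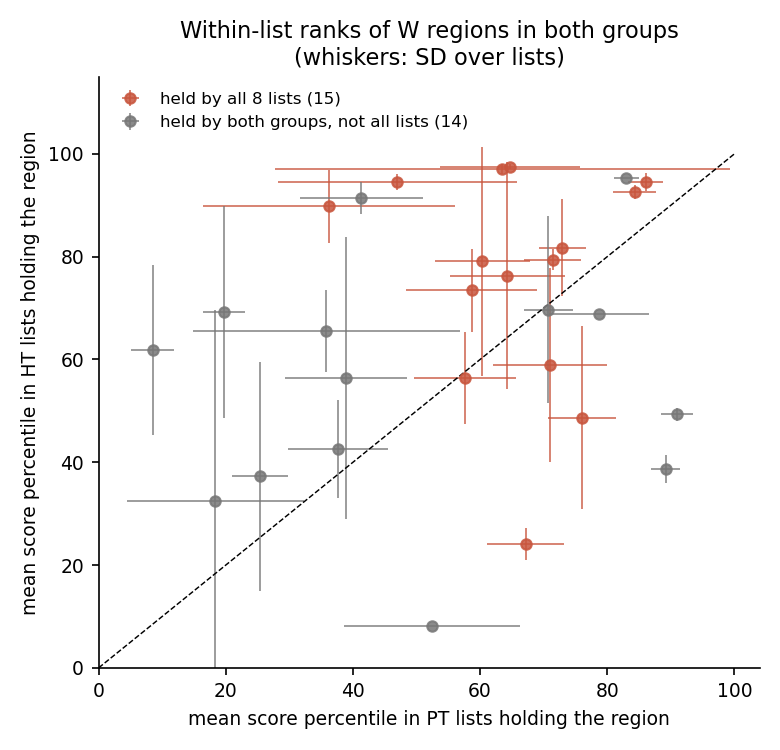
Mean score percentile within the list in PT (x axis) and HT (y axis) for the 29 W regions found in both groups, with the SD over the lists that hold the region as whiskers (none where only 1 list holds it) and the line of equal placement dashed. Points lie on both sides of the line, and those far below it include W:2775143-2775732.

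W peaks differed from the other peaks of the same list. Their median score percentile was 1.89 to 17.6 points above that of the rest of the list in all 8 lists, by 11.3 ± 4.48 points on average (SD, n = 8 lists; exact two-sided sign-flip permutation p = 0.00781, the smallest that the sign patterns of 8 lists can give; adjusted p = 0.0117 over 3 tests). With PT lists 1 to 3 counted as 1 the excess was 12.6 points. Its exact sign-flip permutation p of 0.03125 is the smallest open to that setting. Among only the stronger 50% of peaks by score the excess was 2.82 points (exact permutation p = 0.555). Between the groups, the median percentile of W peaks was 63.7 ± 2.80 in HT and 58.8 ± 4.87 in PT (SD, n = 4 lists each), a difference that missed the threshold (exact permutation p = 0.114, adjusted p = 0.114). It turned to -0.496 points without peaks under 260 bp, but passed at 6.28 points without PT list 4 and at 6.93 points with peaks within 500 bp joined (exact permutation p = 0.0286 each). The highest-scoring 10% of a list took in 20% to 23.9% of the W peaks of HT lists and 7.69% to 12.8% of those of PT lists. With lists of equal length the groups overlapped, at 15.4%, 6.90%, 17.2% and 12.5% in HT and 7.69% to 9.84% in PT. Score percentiles off W were pooled over all other chromosomes and scaffolds, so W was not set beside any single one.

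In width, W peaks differed from the pooled other peaks of the list more in HT than in PT. Widths were not taken for any other single chromosome, so this is not shown to be particular to W. The median W peak was 562, 532, 532 and 539 bp wide in HT lists 1 to 4 and 494, 491, 493.5 and 485 bp in PT lists 1 to 4, with no overlap (exact permutation p = 0.0286, adjusted p = 0.0327). Off W the groups did not overlap either, with medians of 493 to 503 bp in HT and 478 to 491 bp in PT. Wider HT peaks were thus not particular to W. The W median exceeded the median of the rest of the list by 34 to 59 bp in HT, by 9 to 16 bp in PT lists 1 to 3, and was 6 bp below it in PT list 4. Over the 8 lists the excess was 25.9 ± 21.5 bp (SD, n = 8 lists; exact sign-flip permutation p = 0.0156, adjusted p = 0.0156). It was 19.6 bp, with an exact permutation p of 0.109, without peaks under 260 bp. The excess in HT minus that in PT was 36.1 bp (exact permutation p = 0.0286, not among the adjusted tests).

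Peaks on W met peaks of the other group more often than the pooled other peaks of the same list did. The pool joins all other chromosomes and scaffolds, and the share was taken apart only for Z. By the mean Jaccard index between the groups, W stood at rank 9 beside 33 other chromosomes. High agreement between the groups is thus not particular to W. An overlap of at least 1 bp with any list of the other group was found for 52.5%, 52.1%, 47.9% and 45.7% of the W peaks of HT lists 1 to 4, which was 31.5 to 37.7 points above the share among their other peaks. For the PT lists it was 36.7%, 35.9%, 37.2% and 36.0%, or 7.26 to 15.4 points above. The share was higher on W in 8 of 8 lists, by 23.4 ± 12.3 points (SD, n = 8 lists; exact sign-flip permutation p = 0.00781, adjusted p = 0.0117). The same shared places enter the shares of both groups, so the 8 lists do not give 8 independent signs. With PT lists 1 to 3 counted as 1 the excess was 27.3 points. Its exact sign-flip permutation p of 0.03125 is the smallest open to that setting. The excess was larger in HT, at 34.5 ± 3.23 points, than in PT, at 12.3 ± 3.54 (SD, n = 4 lists each; exact permutation p = 0.0286, not among the adjusted tests). Overlap is mutual, so which group has more peaks on a chromosome enters these shares. The larger excess in HT is therefore not a result apart from the peak counts. Of the 68 W regions in any HT list, 29 (42.6%) were in a PT list, and these were 31.5% of the 92 W regions in any PT list. Off W the order was reversed, at 10.6% of 19234 regions in HT and 15.7% of 12912 in PT. Peaks on Z met the other group in 37.1%, 42.1%, 33.9% and 42.6% of cases in PT lists 1 to 4, above W in 3 of the 4, while in each of the 4 HT lists the share on Z was below that on W. By regions on Z, where HT lists have more peaks, it ran the other way, at 12.6% of 1946 regions in HT and 29.3% of 841 in PT. Of the W peaks of HT lists that met no PT peak, most were near one: 30% to 35.4% of all W peaks of an HT list lay within 5 kb of a PT peak, and 14.6% to 19.6% lay farther away. Of the other peaks of the HT lists, 16.1% to 17.4% lay within 5 kb and 66.6% to 69.8% farther away. Only 1 of the 8 chromosomes of like span had more PT peaks per Mb than W. Nearness to a PT peak is therefore also not a result apart from the peak counts.

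**Figure D5:**
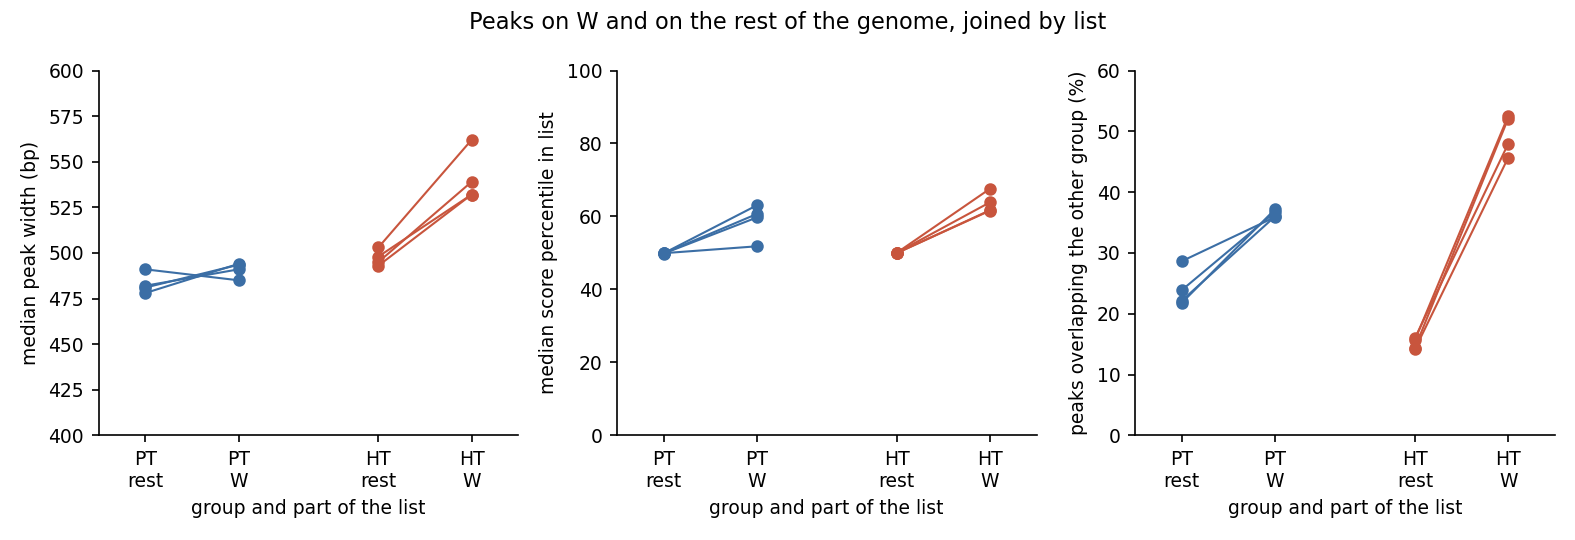
Median peak width (axis from 400 to 600 bp), median score percentile within the list, and percent of peaks that overlap a peak of the other group (y axes), for peaks off W (rest) and on W by group (x axis), with a line for each list. All lines rise from the rest to W in HT, while for width the PT lines are nearly flat and that of PT list 4 falls.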

How the data were processed

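The deposited files are 8 peak lists without a header, 1 per sample. Adapter trimming with cutadapt 1.9.2, alignment with Bowtie2 2.2.4 and the build galGal6 are named in the submitters' processing notes, without settings. Peak names begin with MACS; which version, duplicate handling and control were used is not given in the sources used here. The score per peak is the authors' own, as deposited, and its scale is not stated, so it served for ranks and filters inside 1 list. Starts were raised by 1 base to 1-based positions. Peaks of all lists were merged where they overlapped or touched, and 1 bp of a peak sufficed for a list to hold a region. Group means were compared by exact two-sided permutation tests over 70 relabellings, and W against the rest of a list by exact sign-flip tests over all sign patterns of the 8 lists, with Benjamini-Hochberg adjustment over 8 and 3 tests. The regions named are all 9 held only by the 4 HT lists, the 10 PT-only and the 10 common regions with the highest mean percentile, and the highest-scoring W peak of each list. A few more, such as the pair at 1.33 Mb, the region between neighbouring HT regions and those with reversed placement, were chosen after their values were seen. The chromosome, tests and lists were chosen with earlier results of these data known. The counting was tested on simulated data. Alternatives are under the closing section. Tables were made with pandas 2.3.3 and numpy 2.4.6 under Python 3.11.15, and figures with matplotlib 3.10.9. Depth is unknown.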

Additional observations from a re-analysis of the deposited data

Results flagged for a closer look

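The median gap between neighbouring W peaks was 57.8 kb in PT list 4, against 39.2, 40.3 and 41.4 kb in the other PT lists. Its distance from the nearest of them was 0.880 of the range of the group, above the 95% critical value of Dixon's test for 4 values. Of 22 sets of 4 values tested, 1 was marked in this way. Chance marks about 1 in 20 where the 4 values are independent. The other PT lists held nearly the same W peaks, so these 4 values are not independent. The critical value and the rate of 1 in 20 therefore cannot be applied to them, and no conclusion is drawn from the mark.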

How the results depend on the processing

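Under other settings 155 of 179 values stayed on the same side of the threshold in the same direction (within 1.5 times where regions were counted), and 105 of the 155 came from leaving out 1 list. The following did not, with causes not tested unless the setting gives them. With the replicate block, HT minus PT differences were -32 W peaks, -0.791 points of list peaks, -16.1 kb, -0.777 points of covered length, 50.4 bp, -13.4 W peaks per 100 Z peaks and 32.6 kb between neighbouring peaks. Each has a p of 0.125 in the exact sign-flip permutation test, the smallest that 4 pairs can give. The numbers gave no sign of pairing: same-numbered lists had correlations of -0.00128, 0.00735, 0.0102 and -0.00319 in their deviations from the group means over all regions, and for 1 of the 4 numbers this was the best match of the PT list. With PT lists 1 to 3 counted as 1, a setting chosen after seeing the data, the same differences were -31.2 peaks, -0.756 points, -15.8 kb, -0.744 points, 52.3 bp, -14.1 per 100 Z peaks and 28.2 kb. Of these only the median gap lay above the smallest p of 0.0667 (exact permutation p = 0.2). In that setting W exceeded the rest in width by 30.4 bp (exact permutation p = 0.0625). The difference on scaffolds named after W was -21.9 peaks, and the HT minus PT difference in the excess of W was 40.8 bp in width and 21.7 points in overlap (exact permutation p = 0.0667 each). With the highest-scoring 50% of each list, the excess in score percentile was 2.82 points, and 4 HT, 20 PT and 5 common regions were left. A 50% cover left 9 common regions, and lists of equal length 7 common and 4 HT regions. No shares over the genome were taken under these settings. Without peaks under 260 bp the excess in width was 19.6 bp, and the HT minus PT difference in median percentile reversed to -0.496 points. That difference was 6.93 points with peaks within 500 bp joined and ranged from 2.54 to 6.28 when each list was left out. Leaving out each list gave 22.7 to 38.3 kb for the median gap and 9 to 14 HT regions. The Jaccard index among PT lists 1 to 3 on W was 0.802 with lists of equal length and 0.794 in the highest-scoring 50%. Where no 2 lists have identical peak ends, 0 HT, 0 PT and 0 common regions were left. Keeping only 1 of PT lists 1 to 3 moved no count of regions by over 1.5 times. As these lists held nearly the same W regions, that setting could hardly move the counts, and no stability is read from it. What depth limits cannot be said, since read counts are not in the lists.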
